A study of Homo sapiens with 8 samples.

Results

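The 10 genes described here encode 4 subunits of the transcription factor NF-kB (NFKB1, NFKB2, RELA and RELB), the inhibitors NFKBIA and NFKBIE, the feedback deubiquitinase TNFAIP3 and the target genes BIRC3, TNFAIP2 and ICAM1. They were taken by name from a table of 28395 genes, with earlier results of these data known, and all 10 were among the 14040 genes tested. The series asked how loss of ANXA4, the gene of the calcium-dependent phospholipid-binding protein annexin A4, alters the transcriptome of the human kidney cancer line A-498, an established cell line. It holds 8 polyA RNA-seq libraries from 4 lines derived from A-498, with replicates 1 and 2 of each line. Control line 1 received non-targeting sgRNA-1 and control line 2 non-targeting sgRNA-2, both with the genotype given as wild type control. The lines labelled KO guide 1 and KO guide 2 received ANXA4 sgRNA-1 and ANXA4 sgRNA-2, with the genotype given as ANXA4 knockout. All 4 lines had thus received a guide RNA, and they were harvested 24 h after seeding of equal cell numbers, before confluence. Each guide is represented by 1 line, so guide and line cannot be told apart, and the labels do not say whether the replicates were separate cultures, so p-values between single lines measure only the spread between replicates.

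NF-kB is a family of dimeric factors assembled from RELA, RELB, REL and the products of NFKB1 and NFKB2. In resting cells, inhibitors such as those encoded by NFKBIA and NFKBIE retain the dimers in the cytoplasm, and receptors for tumour necrosis factor and interleukin-1 release them through the kinase complex of CHUK, IKBKB and IKBKG. A slower route through the kinase encoded by MAP3K14 processes the NFKB2 product and frees dimers that contain RELB. Several genes of the circuit, NFKBIA, TNFAIP3, BIRC3, NFKB2 and RELB among them, are themselves known NF-kB targets, which closes feedback loops. In clear cell kidney cancer, loss of the tumour suppressor VHL has been linked to higher NF-kB activity. Annexin A4 has been reported to bind the NFKB1 product.

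Stretches of promoter are shown for the genes of the group that held a match to an NF-kB motif. The mean of 5 of these 6 genes was higher over the KO-labelled than over the control libraries, and that of ICAM1 was lower. The mean was also higher for RELA and TNFAIP2, whose windows held no match, and for RELB and NFKBIE, which had no window. The RefSeq table gave 12 windows of 300 bases, from 250 before to 50 after a start site, for 8 of the 10 genes. RELB and NFKBIE had no window there. The kappaB consensus, a motif of 10 letters, and the shorter core GGANTTTCC, which overlaps it, were searched on both strands. Every stretch below is from GRCh38.p14, reads 5′ to 3′ on the strand of the gene, and carries the matches to either motif in capitals. By GENCODE, the stretches of NFKB1, TNFAIP3, ICAM1 and the first of NFKB2 reach into the untranslated first exon of a longer transcript of the same gene and are kept short, the other of NFKB2 lies in an intron, and those of BIRC3 and NFKBIA lie outside transcripts. Each NFKB2 window holds 1 further match downstream of the stretch shown.
NFKB1, chr4:102501300-102501329, plus strand: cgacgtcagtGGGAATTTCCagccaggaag
TNFAIP3, chr6:137867188-137867217, plus strand: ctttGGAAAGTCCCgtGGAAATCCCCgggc
NFKB2, chr10:102394462-102394490, plus strand: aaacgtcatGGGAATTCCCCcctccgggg
NFKB2, chr10:102395519-102395548, plus strand: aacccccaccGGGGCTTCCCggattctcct
BIRC3, chr11:102317270-102317373, plus strand: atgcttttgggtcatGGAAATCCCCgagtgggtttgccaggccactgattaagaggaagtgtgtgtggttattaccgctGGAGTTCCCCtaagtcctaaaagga
NFKBIA, chr14:35404806-35404999, minus strand: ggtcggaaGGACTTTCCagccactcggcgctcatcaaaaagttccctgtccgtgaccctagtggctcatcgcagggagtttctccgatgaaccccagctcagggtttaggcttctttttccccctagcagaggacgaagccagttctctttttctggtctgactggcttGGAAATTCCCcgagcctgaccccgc
ICAM1, chr19:10270924-10270952, plus strand: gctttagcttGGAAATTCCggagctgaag
The kappaB consensus was found in 6 of the 12 windows (NFKB1, TNFAIP3, BIRC3, NFKBIA and both shown windows of NFKB2), where 5.91% of all 35116 RefSeq promoter windows of the same length held it. The core GGANTTTCC was found in 5 windows (NFKB1, TNFAIP3, NFKB2, NFKBIA and ICAM1), against 1.64% of all windows. TATAAA, a motif unrelated to NF-kB, was found in 2 (NFKBIA and ICAM1), against 11.5% of all windows. The windows of RELA and TNFAIP2 held none of these 3 motifs. These genes were listed because they are known NF-kB genes, so the matches describe them, and no factor was measured at these positions.

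Library quality was examined before the genes. Depth ranged from 15784890 to 22631588 reads and was lower in replicate 2 of every line. Mitochondrial genes held 4.67% to 9.05% of the reads in 7 libraries and 13.8% in replicate 2 of the line labelled KO guide 2. As a check of the labels, the normalized count of ANXA4 was 2821 to 6773 over the control libraries and 234.4 and 235.6 over those labelled KO guide 1. The libraries labelled KO guide 2 had 3433 and 4142, within the range of the controls, so every direction given for KO refers to the labels. These counts are of RNA and do not show whether the protein was lost in either line. Of 8 kidney and carcinoma markers, 7 had at least 10 reads in every library (PAX8 2987 to 4476 normalized counts), whereas CA9 had 2 to 26 reads. Of 12 markers of leukocytes, endothelium and fibroblasts, 7 had at most 3 reads in every library and 3 (CD3E, CDH5 and LUM) had 0 in all. CD68, which encodes a lysosomal protein made beyond macrophages too, was the 1 of these 12 with at least 10 reads in every library. It made up most of their summed normalized count, which was 1800 to 4286 in control and 3145 to 4429 in KO-labelled libraries, and its part in the results was not tested.

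Levels between genes were compared per kilobase of annotated exon. On that scale the mean normalized count over the 8 libraries was highest for TNFAIP2 (1238 per kilobase) and ICAM1 (1216), followed by NFKB2 (770), NFKBIA (328), RELB (236), RELA (195), BIRC3 (187), NFKB1 (182), TNFAIP3 (168) and NFKBIE (132). NFKB2 lay above NFKBIA, and NFKBIA above RELB, in every library. Among neighbours in this order, only the ranges of NFKB2 and NFKBIA over the libraries did not overlap. Between the highest and the lowest library the level of a gene differed least for RELA (1.61-fold) and most for TNFAIP3 (5.13-fold). In bulk RNA a lower level in each cell and a smaller number of expressing cells cannot be told apart.

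**Figure D1:**
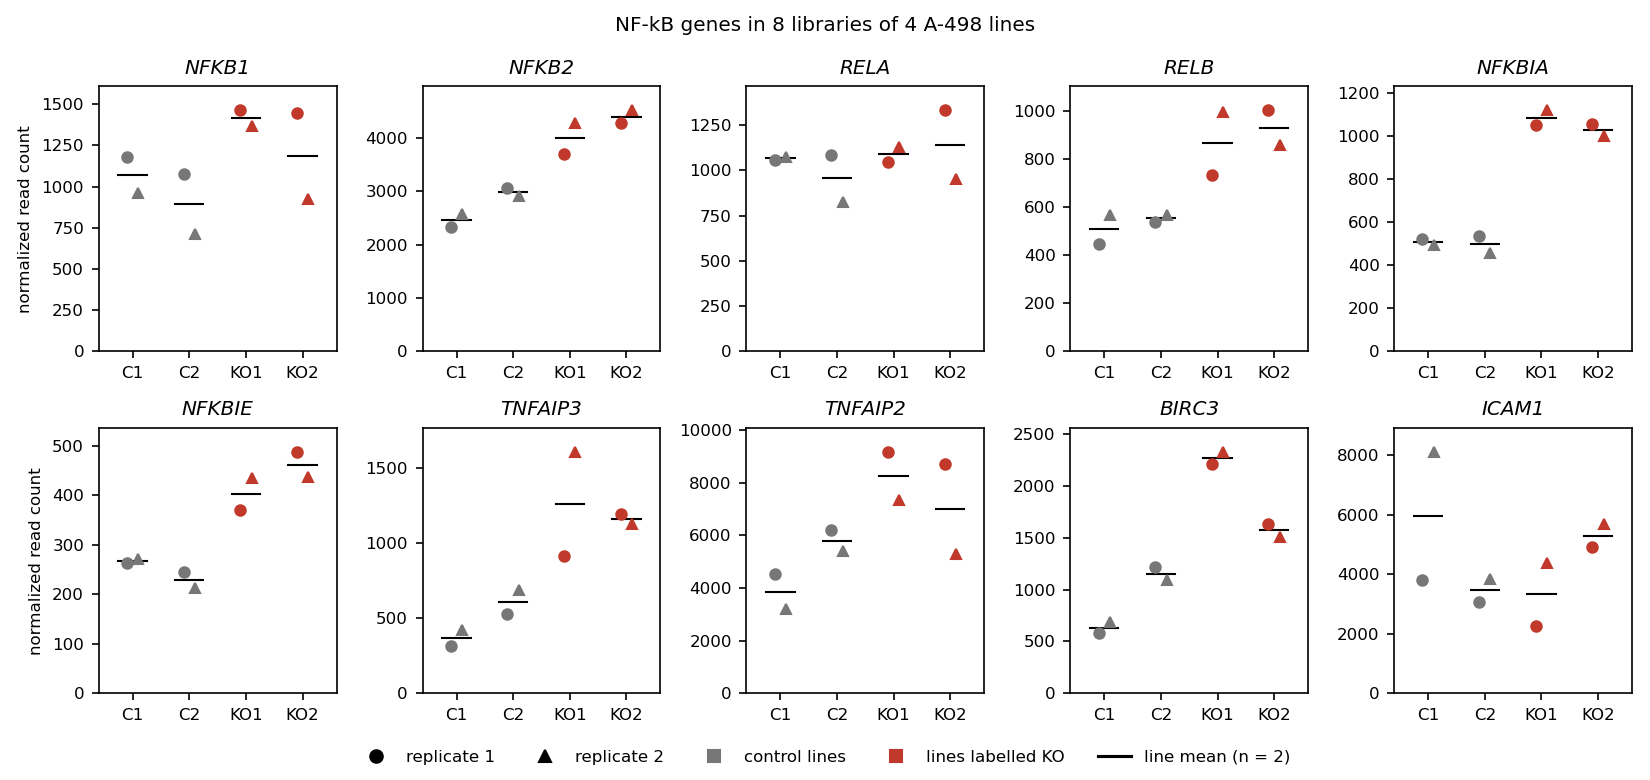
Normalized read counts (linear axis from 0) of the 10 genes in each library of control line 1 (C1), control line 2 (C2) and the lines labelled KO guide 1 (KO1) and KO guide 2 (KO2). Circles are replicate 1, triangles replicate 2 and bars the means of 2. In 6 panels, such as NFKBIA (458 to 534 in controls, 998 to 1119 in KO-labelled lines), all red points lie above all grey points, whereas RELA and ICAM1 overlap.

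Among the subunits, NFKB2 and RELB, the pair of the slower route, were higher in every KO-labelled library than in any control library, while RELA was not. NFKB2 (GRCh38.p14, chr10:102394110-102402529, plus strand) showed 2331 and 2575 normalized counts in control line 1, against 3050 and 2900 in control line 2. It showed 3700 and 4282 in the line labelled KO guide 1 and 4277 and 4517 in the line labelled KO guide 2. The lowest KO-labelled library was thus above the highest control library, and the control lines themselves did not overlap. The mean was 2714 ± 323 for the control arm and 4194 ± 348 for the KO-labelled arm (SD, n = 4 each), with a log2 difference of 0.63 (SE 0.14) that missed the threshold with the line as a random effect (limma adjusted p 0.120).

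RELB (chr19:45001464-45038192, plus strand) had 448 and 569 in control line 1, 541 and 569 in control line 2, 736 and 997 in the line labelled KO guide 1 and 1005 and 858 in the line labelled KO guide 2. The 4 control libraries lay close together and below all KO-labelled libraries, whose replicates differed in opposite directions in the 2 lines. Its KO minus control difference was 0.75 on the log2 scale (SE 0.18, limma adjusted p 0.137).

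NFKB1 (chr4:102501359-102617302, plus strand), which encodes the precursor of the subunit that pairs most often with RELA, had 1180 and 961 in control line 1, 1077 and 715 in control line 2, 1464 and 1365 in the line labelled KO guide 1 and 1444 and 926 in the line labelled KO guide 2. Within replicate 1 both KO-labelled libraries were above both controls, but replicate 2 of the line labelled KO guide 2 fell inside the control range. The arms differed by 0.40 (SE 0.25, limma adjusted p 0.595).

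RELA (chr11:65653601-65663857, minus strand), the main activating subunit, had 1056 and 1075 in control line 1, 1084 and 828 in control line 2, 1045 and 1132 in the line labelled KO guide 1 and 1333 and 952 in the line labelled KO guide 2. The arms overlapped, and the difference of 0.14 had a 95% interval from -0.26 to 0.54 (limma adjusted p 0.851). REL, the remaining subunit gene, was low, with 108 to 158 in control libraries, 240 and 222 in the line labelled KO guide 1 and 135 and 112 in the line labelled KO guide 2. It rose in the line labelled KO guide 1 against both control lines (0.82, limma adjusted p 0.0439), and its difference between the KO-labelled lines missed the threshold (-0.90, limma adjusted p 0.0520).

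Both inhibitor genes were higher in all 4 KO-labelled libraries. NFKBIA (chr14:35401513-35404749, minus strand), whose product is degraded when the pathway is switched on and is then made anew, had 521 and 494 in control line 1, 534 and 458 in control line 2, 1048 and 1119 in the line labelled KO guide 1 and 1054 and 998 in the line labelled KO guide 2. The gap between the arms, from 534 to 998, was wider than the range within either. The means were 502 ± 33.9 and 1055 ± 49.6 (SD, n = 4 each), a 2.10-fold rise and a log2 difference of 1.07 (SE 0.14, limma adjusted p 0.0121). NFKBIA was the only 1 of the 10 genes called between KO-labelled and control lines, where 0.235% of all tested genes were called. The call was lost on removal of replicate 1 of the KO guide 2 line (adjusted p 0.0879) and when the 4 line means replaced the libraries (adjusted p 0.387).

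NFKBIE (chr6:44258166-44265551, minus strand), a related inhibitor, had 263 and 270 in control line 1, 246 and 213 in control line 2, 370 and 435 in the line labelled KO guide 1 and 487 and 437 in the line labelled KO guide 2. Its lowest KO-labelled value was above its highest control value, and the difference of 0.80 (SE 0.17) did not pass (limma adjusted p 0.101).

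TNFAIP3 (chr6:137866349-137883312, plus strand) encodes A20, a ubiquitin-editing enzyme that shuts off signalling upstream of the kinase complex. It had 313 and 423 in control line 1, 525 and 687 in control line 2, 914 and 1604 in the line labelled KO guide 1 and 1190 and 1124 in the line labelled KO guide 2. All KO-labelled libraries were above all controls, and control line 2 was above control line 1. The arm means were 487 ± 159 and 1208 ± 289 (SD, n = 4 each), and the log2 difference of 1.34 (SE 0.29) was the largest of the 10 but missed the threshold (limma adjusted p 0.109). Exons of an antisense gene overlap 95 bases of those of TNFAIP3 (1.88%), and reads there could belong to either because strand use was not stated.

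Of the target genes, BIRC3 separated every line. BIRC3 (chr11:102317484-102339403, plus strand), which encodes the ubiquitin ligase cIAP2 of the receptor complexes, had 581 and 685 in control line 1, 1216 and 1090 in control line 2, 2205 and 2324 in the line labelled KO guide 1 and 1636 and 1508 in the line labelled KO guide 2. No 2 lines overlapped, and the control lines differed by more than the replicates of any line. The KO minus control difference of 1.14 (SE 0.26) did not pass with the line as a random effect (limma adjusted p 0.113). That fit used 1 correlation within lines, 0.33, for all genes, which understates the spread between lines for a gene like BIRC3.

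TNFAIP2 (chr14:103121469-103137439, plus strand), a gene induced by tumour necrosis factor, had 4524 and 3194 in control line 1, 6194 and 5395 in control line 2, 9161 and 7350 in the line labelled KO guide 1 and 8710 and 5298 in the line labelled KO guide 2. Replicate 2 was lower than replicate 1 in each line, and 1 KO-labelled library lay among the controls. The arms differed by 0.67 (SE 0.27, limma adjusted p 0.381).

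ICAM1 (chr19:10271120-10286615, plus strand), a cell adhesion molecule and a classical cytokine-induced gene, had 3817 and 8097 in control line 1, 3082 and 3844 in control line 2, 2272 and 4378 in the line labelled KO guide 1 and 4898 and 5674 in the line labelled KO guide 2. The arms overlapped, with the highest library in control line 1 and the lowest in the line labelled KO guide 1. The difference was -0.10, with a 95% interval from -0.99 to 0.79 (limma adjusted p 0.958), and its sign changed when single libraries were left out. An antisense gene shares 815 bases with the exons of ICAM1 (22.0%) and another shares 61, so part of its reads is uncertain.

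Across the group, 6 of the 10 genes (NFKB2, RELB, NFKBIA, NFKBIE, TNFAIP3 and BIRC3) had all 4 KO-labelled libraries above all 4 control libraries, where 5.11% of the tested genes did. The median log2 difference of the 10 genes was 0.71, beside 0.00 for all tested genes. At an unadjusted p under 0.05 the count was 7, all higher, where 1615 of the 14040 tested genes were, and 1 passed the adjustment. The number of calls differed with how the spread between lines was treated and with the test used. With the 8 libraries as independent samples, 5 of the genes were called (NFKB2, RELB, NFKBIA, NFKBIE and TNFAIP3) where 1.35% of all genes were, and the quasi-likelihood test of edgeR called the same number, where it called 1.32% of all genes. DESeq2 called 6, where it called 6.05% of all genes. Neither the edgeR nor the DESeq2 fit had a term for line, so both also took the 8 libraries as independent. Line means gave 0 calls among the 10 and among all genes with limma, with 1086 of all genes at an unadjusted p under 0.05.

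Each KO-labelled line was then set against the 2 control lines, which both comparisons share. In the line labelled KO guide 1, in which ANXA4 RNA was low, 6 of the 10 genes rose and 0 fell, where 7.01% of all tested genes were called. BIRC3 rose by 1.41 (limma adjusted p 0.000714), TNFAIP3 by 1.37 (adjusted p 0.0124) and NFKBIA by 1.11 (adjusted p 0.00179) on the log2 scale. The rises of NFKBIE (0.70, adjusted p 0.0254), RELB (0.69, adjusted p 0.0415) and NFKB2 (0.56, adjusted p 0.0251) were smaller. Without replicate 2 of that line the calls of NFKB2 (adjusted p 0.236), RELB (0.325), NFKBIE (0.228) and TNFAIP3 (0.113) were lost. NFKB2 and NFKBIE also lost theirs without replicate 1 of that line, either library of control line 1 or replicate 2 of control line 2 (adjusted p 0.0605 to 0.11), and RELB lost its own without any 1 library of these 3 lines and without the filter on low values (0.0522 to 0.325). NFKBIA and BIRC3 kept theirs without any 1 library. With the replicate number as a block, TNFAIP2 (0.81, adjusted p 0.0634 without the block and 0.000355 with it) and NFKB1 (0.55, adjusted p 0.166 and 0.00614) were called higher and ICAM1 lower (-0.47, adjusted p 0.409 and 0.0483), where the block called 24.4% of all genes. TNFAIP2 was also called with DESeq2 (adjusted p 0.00551, where 10.3% of all genes were) and on removal of either library of the KO guide 2 line (0.0248 and 0.0249).

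In the line labelled KO guide 2, in which ANXA4 RNA lay within the control range and the protein was not measured here, 6 genes rose and 0 fell, where 11.2% of all tested genes were called. TNFAIP3 rose by 1.31 (limma adjusted p 0.00981), NFKBIA by 1.03 (adjusted p 0.00207) and NFKBIE by 0.90 (adjusted p 0.00618). BIRC3 rose by 0.88 (adjusted p 0.00357), RELB by 0.81 (adjusted p 0.0162) and NFKB2 by 0.70 (adjusted p 0.00679). RELB lost its call without replicate 1 of control line 1 (adjusted p 0.0554) and on removal of replicate 1 of the KO guide 2 line (adjusted p 0.0831). At 0.54, TNFAIP2 was called only with the replicate block (adjusted p 0.161 without and 0.00391 with it, where 27.4% of all genes were) and without replicate 2 of this line (adjusted p 0.0454). NFKB1 (0.26), RELA (0.16) and ICAM1 (0.27) were not called in either fit.

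**Figure D2:**
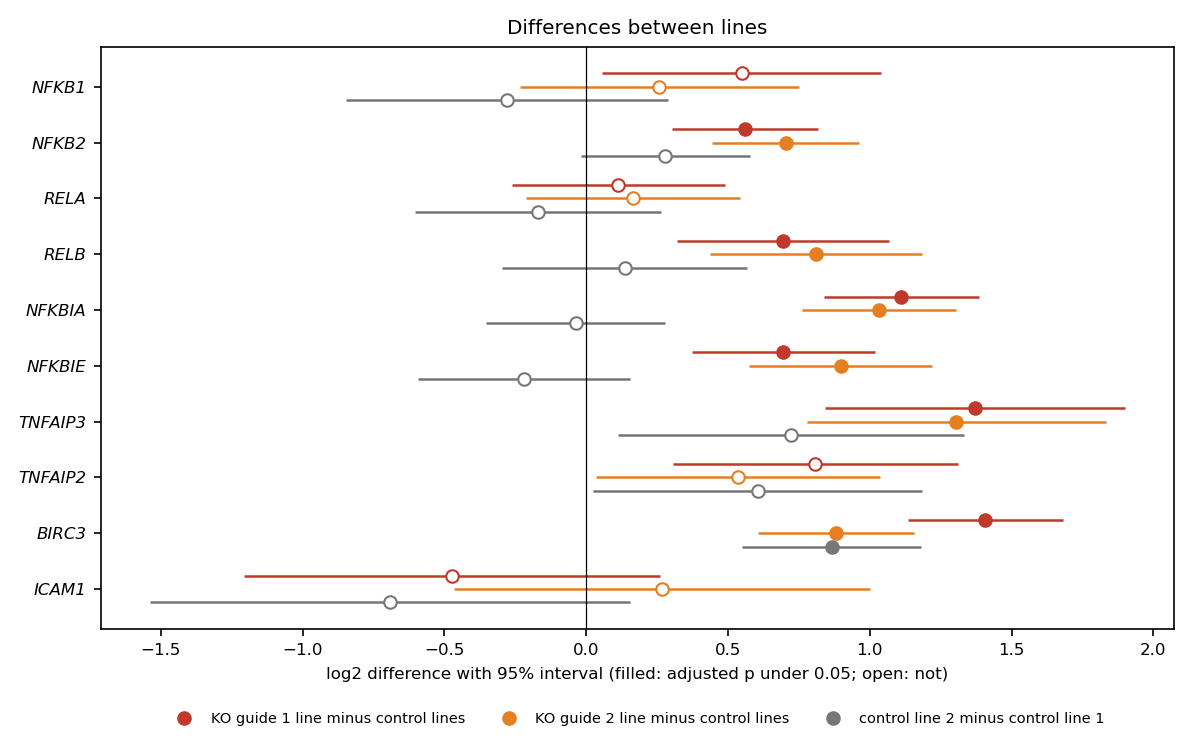
Log2 differences of the 10 genes with 95% intervals from limma, for the lines labelled KO guide 1 (red) and KO guide 2 (orange) against the pooled control lines and for control line 2 against control line 1 (grey). Filled points passed an adjusted p of 0.05. NFKBIA lies at 1.11 and 1.03 in the KO-labelled lines and at -0.04 between the controls, whereas BIRC3 differs by 0.87 between the controls too.

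The size of these differences was read against lines of the same arm. Between the control lines, 1 of the 10 genes was called, where 2.13% of all genes were: BIRC3 was 0.87 higher in control line 2 (limma adjusted p 0.0233), beside 0.88 for BIRC3 between the line labelled KO guide 2 and the controls. That call was lost without any 1 of 6 libraries, those of both control lines and of the line labelled KO guide 1 (adjusted p up to 0.173). TNFAIP3 (0.72, adjusted p 0.228 without and 0.0159 with the replicate block), TNFAIP2 (0.60, 0.295 and 0.00951) and ICAM1 (-0.69, 0.445 and 0.0282) were called between the controls only with the block, which called 12.5% of all genes there. NFKBIA differed by -0.04 between the control lines, with a 95% interval from -0.35 to 0.28. Between the KO-labelled lines, 0 of the 10 genes were called with limma, where 6.94% of all genes were, and BIRC3 alone had an unadjusted p under 0.05 (-0.53, adjusted p 0.0566). With the block, BIRC3 (adjusted p 0.00866) and ICAM1 (0.74, adjusted p 0.265 without and 0.0121 with it) were called there, 2 of the 10 where the block called 24.5% of all genes, and DESeq2 called BIRC3 (adjusted p 0.0306) where it called 9.93% of all genes. An F test over the 4 lines called the 6 genes that rose in both KO-labelled lines, where 15.1% of all genes were called, and the block added NFKB1 (adjusted p 0.0103), TNFAIP2 (0.000247) and ICAM1 (0.00569) but not RELA, where it called 43.0% of all genes. In that test NFKB2 lost its call without either library of control line 1 (adjusted p up to 0.0717), TNFAIP3 without replicate 1 of it (0.0563) and RELB without any 1 of 4 libraries, those of control line 1, replicate 2 of the KO guide 1 line and replicate 1 of the KO guide 2 line (up to 0.0983), while TNFAIP2 gained one without either library of the latter (0.0320 and 0.0230).

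Replicate number was a separate source of variation for part of the group. Between replicate 2 and replicate 1 within lines, 4 of the 10 genes were called, where 17.6% of all genes were. Of those called genes, 51.0% were higher in replicate 2, and 29.9% were with libraries scaled to equal totals. ICAM1 rose by 0.64 (SE 0.13, limma adjusted p 0.00776) and was higher in replicate 2 in 4 of 4 lines, by 1.08 and 0.32 in control lines 1 and 2 and by 0.95 and 0.21 in the lines labelled KO guide 1 and KO guide 2. TNFAIP2 fell by 0.43 (SE 0.09, adjusted p 0.00894) and NFKB1 by 0.41 (SE 0.10, adjusted p 0.0161), each lower in 4 of 4 lines. TNFAIP3 rose by 0.39 (SE 0.12, adjusted p 0.0439), from a difference of 0.81 in the line labelled KO guide 1 to -0.08 in the line labelled KO guide 2.

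The call of TNFAIP3 was lost when libraries were scaled to equal totals (adjusted p 0.106), without the filter on low values (0.0568) and without any 1 library of control line 1, control line 2 or the line labelled KO guide 1 (up to 0.169). NFKB1 lost its call without any 1 library of control line 2 or of the line labelled KO guide 2 (adjusted p 0.0742 to 0.107). ICAM1 and TNFAIP2 kept theirs without any 1 library. Of all tested genes, 20.2% were higher and 19.3% lower in replicate 2 in all 4 lines. For a group of 10 genes, 1 higher (ICAM1) and 2 lower (NFKB1 and TNFAIP2) are both near that background. Replicate 2 had fewer reads in all 4 lines, and its mitochondrial share was higher in 3 lines and lower in the line labelled KO guide 1 (6.23% against 6.43%), and the part of either was not tested.

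**Figure D3:**
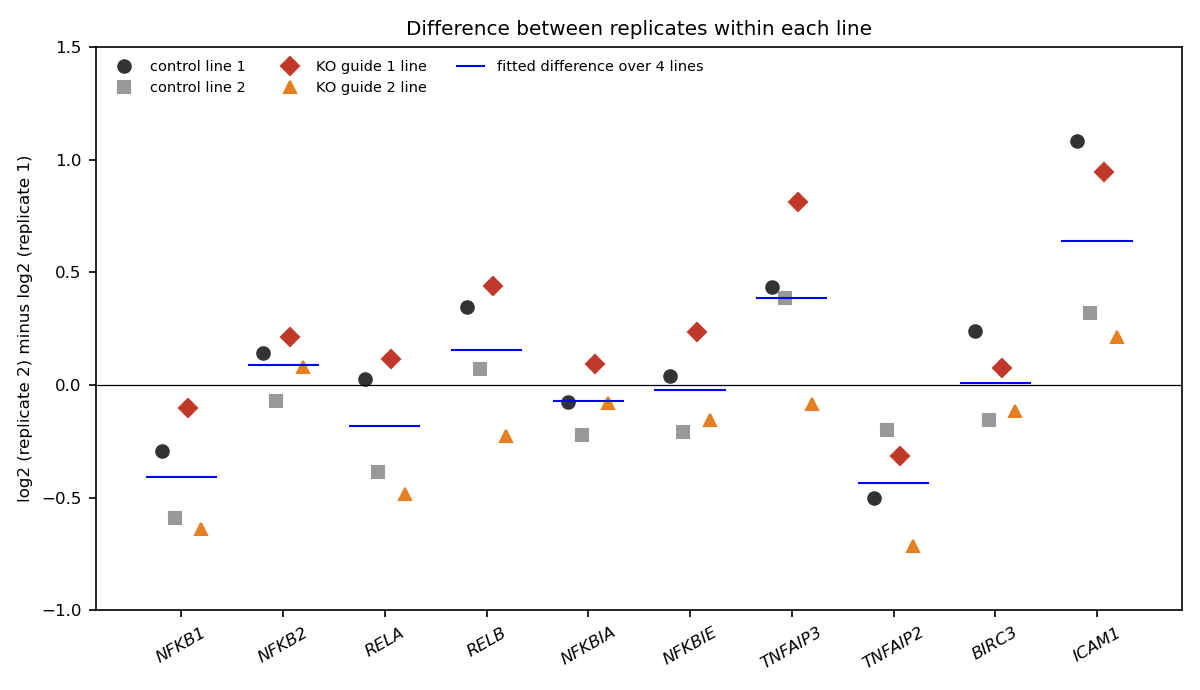
Log2 difference between replicate 2 and replicate 1 of each gene in each of the 4 lines (symbols), with the fitted difference over the lines (blue bars). ICAM1 lies above 0 and TNFAIP2 and NFKB1 below 0 in all 4 lines, while the points of BIRC3 and NFKBIE scatter around 0.

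The variation of each gene over the 8 libraries was split into parts for line, replicate number and the rest, as a description with no test. Line held 98.6% of the sum of squares of BIRC3, 98.5% of that of NFKBIA, 95.9% for NFKB2, 95.7% for NFKBIE, 89.1% for TNFAIP3 and 86.4% for RELB. For NFKBIA nearly all of it (98.2%) lay between the KO and control arms, whereas for BIRC3 the arms held 70.8% and lines within an arm the remainder. Replicate number held 38.0% for ICAM1, 36.2% for NFKB1, 24.8% for RELA and 21.0% for TNFAIP2, and at most 6.53% for the other genes. RELA had its largest part (49.1%) in neither. The median over the 10 genes was 87.7% for line, 74.3% for arm and 5.08% for replicate number, beside medians of 65.1%, 15.8% and 13.0% over all tested genes.

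**Figure D4:**
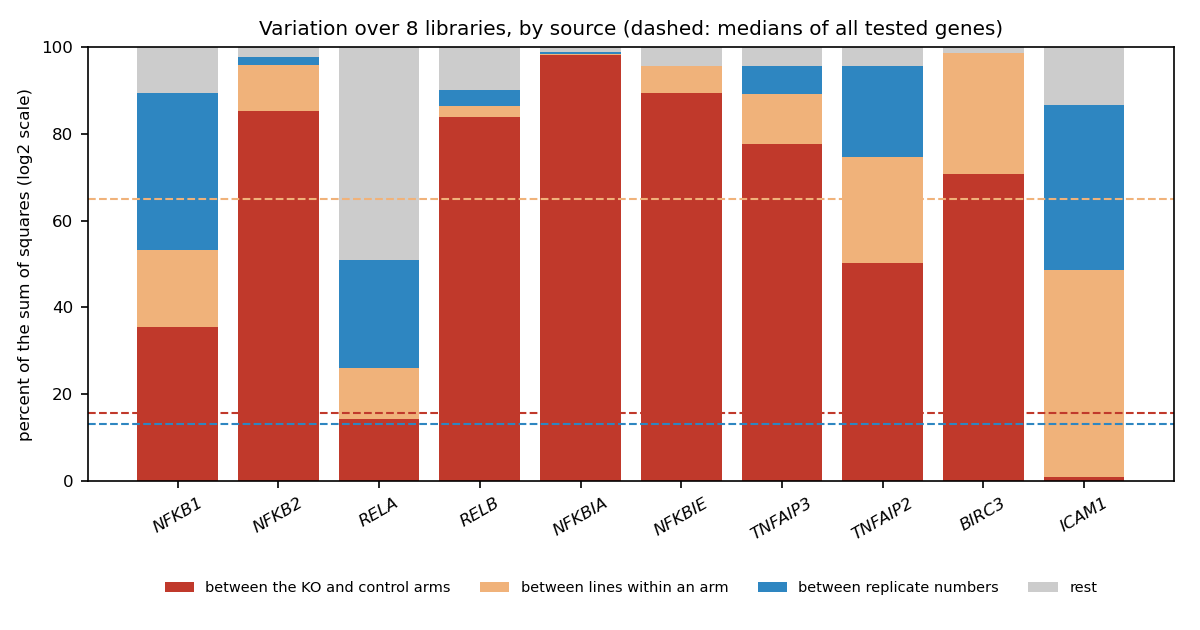
Percent of the sum of squares of log2(value + 1) over 8 libraries that lay between arms (red), between lines of an arm (light orange), between replicate numbers (blue) and in the rest (grey). Dashed lines give the medians of all tested genes for arm (15.8%), replicate number (13.0%) and line as a whole (65.1%). NFKBIA has 98.2% and ICAM1 has 0.953% between arms.

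The KO minus control difference had the same sign within each replicate number for all 10 genes. In replicate 1 and replicate 2 it was 0.99 and 1.15 for NFKBIA, 1.36 and 1.31 for TNFAIP3, 0.58 and 0.69 for NFKB2, 0.80 and 0.70 for RELB and 0.74 and 0.86 for NFKBIE. A test of the change of this difference between the replicate numbers called 0 of the 10 genes, 0 of them with an unadjusted p under 0.05, where 0.00712% of all genes were called.

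Upstream of the subunits, IKBKB, the catalytic kinase of the main route, was 407 and 503 in control line 1, 762 and 767 in control line 2, 950 and 1007 in the line labelled KO guide 1 and 1110 and 966 in the line labelled KO guide 2. It rose in both KO-labelled lines (0.73, limma adjusted p 0.0153, and 0.81, adjusted p 0.00665) and also from control line 1 to control line 2 (0.75, adjusted p 0.0437). CHUK, its partner kinase, had 407 to 501 in the line labelled KO guide 1, 386 to 434 in the line labelled KO guide 2 and 421 to 486 in the controls, and IKBKG, the regulatory subunit, had 447 to 497 in KO-labelled and 415 to 673 in control libraries. Neither was called in these comparisons. MAP3K14 was not called between lines and fell by 0.59 in replicate 2 (adjusted p 0.0031).

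Of 37 other genes of the pathway, all tested, 0 were called between KO-labelled and control lines, where 0.235% of all tested genes were. With limma 4 had an unadjusted p under 0.05, all higher, where 1615 of the 14040 tested genes had one in either direction. The median difference was 0.11, beside 0.00 for all tested genes. In the line labelled KO guide 1, 4 rose (REL, IKBKB, TRAF1 and TNFRSF1A) and 0 fell, and in the line labelled KO guide 2, 4 rose (IKBKB, TRAF1, NFKBID and TRADD) and 0 fell, where 7.01% and 11.2% of all tested genes were called in either direction. TRAF1, an adaptor that is itself an NF-kB target, rose by 1.12 (limma adjusted p 0.0245) and 0.83 (adjusted p 0.0473). Between the control lines 2 rose (IKBKB and LTBR), and between the replicate numbers 2 rose (CD40 and NFKBIZ) and 3 fell (MAP3K14, BCL3 and TAB1), where 2.13% and 17.6% of all tested genes were called. These counts are given as a description of the list.

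Of 35 other NF-kB targets, 31 were tested, since TNF and LTB had no read in any library and SELE and STAT5A stayed under the filter. Between KO-labelled and control lines 1 rose, where 0.235% of all tested genes were called. It was TNFRSF9 (1.79, limma adjusted p 0.0371), a co-stimulatory receptor with 78.2 to 151 in control and 319 to 508 in KO-labelled libraries. Its rise was known from these data when the list was chosen, so the count is only a description. VCAM1, SOD2, TNFAIP8 and TNFRSF9 rose in each KO-labelled line against the controls, CCL2 also rose in the line labelled KO guide 2, and IL1B and CSF1 fell there, again where 7.01% and 11.2% of all tested genes were called. IL1B was low, with a mean normalized count of 19.8 over the 8 libraries. From control line 1 to control line 2, 0 rose and 1 fell, where 2.13% of all tested genes were called. That gene, IL1A (-3.61, limma adjusted p 0.0346), had a mean of only 4.77. Between the replicate numbers 14 of the 31 rose and 3 fell, with a median of 0.41 beside 0.00 for all tested genes, of which 17.6% were called. The risers included the chemokine genes CXCL8 (1.33, adjusted p 2.41e-05) and CXCL3 (1.25, adjusted p 0.00164) and the cytokine gene IL6 (1.13, adjusted p 0.00132). NUAK2 (-0.61), GADD45B (-0.52) and MYC (-0.30) fell.

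By the median of their 50 nearest tested genes on the chromosome, the surroundings of the 10 genes differed by -0.11 to 0.08 between KO-labelled and control lines and by -0.19 to 0.12 and -0.06 to 0.10 in the lines labelled KO guide 1 and KO guide 2. The 6 genes that rose in both lines lie on 5 chromosomes. The mean standardized level of the 10 genes was highest in replicate 1 of the line labelled KO guide 2 (1.00) and lowest in replicate 1 of control line 1 (-0.82). It does not stand for each of the 10 alike. Pearson's r with it was 0.96 for NFKBIA and RELB, but 0.74 for TNFAIP2, 0.68 for NFKB1, 0.60 for RELA and -0.03 for ICAM1. Among 11227 other tested genes with a mean normalized count of at least 50, those whose log2 values followed this mean level most closely over the 8 libraries were PUDP (Pearson's r 0.979), ZMIZ2 (0.975), GSKIP (0.971), RNF144B (0.965) and PSD3 (0.961), none of them in the pathway lists. These are the highest of many coefficients over 8 libraries that share lines, and are given as a description.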

How the data were processed

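PolyA RNA of 8 libraries was sequenced, and the authors deposited 1 table of a normalized signal per gene on a linear scale, with featureCounts named per the file headers. The submitters' processing notes list fastp 0.23.2, HISAT2 2.2.1, featureCounts 2.0.1, DESeq2 2.11.40.8 and the builds hg38 and GRCh38, without roles. The annotation, the use of strand and any filter were not given in the sources used here. All deposited values above 0 (100%) were whole multiples of the value of 1 read in their library (relative tolerance 1e-06), so the values are read counts scaled by a single factor for each library, and whole reads were recovered from them. Depth was 15784890 to 22631588 reads, and reads carried no molecular identifiers. Entrez identifiers were given symbols and positions from RefSeq GRCh38.p14 (27745 of 28395 matched, and the other 650 held 0.0332% of the reads). Exon lengths and overlapping genes came from GENCODE, and promoter windows from RefSeq.

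Differences were tested with limma 3.58.1 (lmFit and eBayes with trend, R 4.3.3) on log2(value + 1), which understates changes of low genes. Tests covered the 14040 genes that reached a value of 10 in 2 or more libraries, with Benjamini-Hochberg adjustment over all of them and a call at an adjusted p under 0.05. KO was compared with control over 8 libraries with the line as a random effect (duplicateCorrelation, 1 value of 0.33 shared by all genes). Single lines were compared in a model with a mean per line, and the replicate number was tested with a term for line. The interaction of arm and replicate number also had the line as a random effect (0.59). The scripts were tested on simulated counts with known changes. These held no spread between lines of an arm, so that check does not cover how the fits treat such spread. The difference between replicate numbers, taken from the sample titles, correlated across the tested genes in all 6 pairs of lines (Pearson's r 0.285 to 0.501, each above 0.1). The main fits between arms and between lines nevertheless had no block for the replicate number. Values with the replicate number as a block are printed where they change a call. Libraries of a line differed by more than counting error (chi-square 14.4 to 54.7 per degree of freedom) and were counted separately.

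Alternatives covered the pseudocount, the filter, the scaling, the model of lines, leaving out each library, the replicate block, and edgeR 4.0.16 and DESeq2 1.42.0 on the recovered reads, where the quasi-likelihood test of edgeR called 186 genes between arms. In that comparison edgeR and DESeq2 had no term for line and took the libraries of a line as independent. All 10 genes, REL and the kinase genes CHUK, IKBKB, IKBKG and MAP3K14 are named with their values, and of 2 further lists (37 pathway genes, 35 targets) the rule names up to 3 genes per direction and comparison, by size, among those called with a mean value of at least 50, for the arm and replicate comparisons. The 5 genes most alike in pattern were ranked by Pearson's r with the mean standardized level of the 10. Other names were given because counts were small or chosen after values were seen. The genes, lists and tests were chosen with earlier results of these data known, among them the rise of TNFRSF9.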

Additional observations from a re-analysis of the deposited data

Results flagged for a closer look

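A pair of values stood apart within a group of 4 libraries. RELA had 828 normalized counts in replicate 2 of control line 2, the lowest of the 4 control libraries, which otherwise lay between 1056 and 1084. The gap to the nearest library was 0.892 of the range of the group, above Dixon's critical value for 4 values at the 95% level. ICAM1 had 8097 in replicate 2 of control line 1, the highest of the 4 control libraries, which otherwise lay between 3082 and 3844, with a gap of 0.848 of the range. The 10 genes gave 20 groups of 4 libraries, and chance marks about 1 group in 20. Each of these groups joins 2 lines.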

How the results depend on the processing

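Of 1250 values of the 10 genes under an alternative, 1128 kept their direction and side of the threshold, 47 lost a call, 48 gained one and 27 changed sign. For KO against control (33 genes, 54.5% of them higher, and 44.4% with equal totals), libraries as independent samples gave 190, line means 0, no filter 71, edgeR 186, DESeq2 850 and edgeR with the replicate block, an alternative chosen after seeing the data, 255. Because same-numbered replicates deviated together, fits with the replicate block removed that spread: they gave 37 genes for KO against control, and, with limma and then edgeR, 3432 and 3492 against 984 for the line labelled KO guide 1, 3851 and 3813 against 1573 for the line labelled KO guide 2, 1752 and 1780 against 299 between the control lines, 3442 and 3426 against 975 between the KO-labelled lines and 6037 and 6099 against 2126 over the 4 lines. The block changed no call of the 10 genes other than those given above. Between the control lines no filter gave 183 and DESeq2 655, and no filter gave 0 against 1 for the interaction. Without single libraries the counts were 7 to 39 for KO against control, 148 to 1324 and 814 to 1360 for the lines labelled KO guide 1 and KO guide 2, 43 to 410 between the control lines, 87 to 998 between the KO-labelled lines, 669 to 2056 over the 4 lines, 705 to 2306 between the replicate numbers and 0 to 1 for the interaction. Fewer libraries leave fewer degrees of freedom, and a line left with 1 library was assumed to vary like the others. The median replicate share of the 10 genes was 3.07% with equal totals against 5.08%. Leaving out single libraries changed the sign of differences that were not called: ICAM1 ranged from -0.24 to 0.19 between the arms, from -0.94 to 0.0013 and from -0.0021 to 0.54 in the lines labelled KO guide 1 and KO guide 2. In the latter NFKB1 ranged from -0.062 to 0.58 and RELA from -0.077 to 0.41. Between the control lines NFKB1 ranged from -0.57 to 0.017, RELA from -0.36 to 0.024, RELB from -0.036 to 0.31 and NFKBIA from -0.15 to 0.074. Between the KO-labelled lines NFKB1 ranged from -0.61 to 0.030, RELA from -0.19 to 0.29, RELB from -0.10 to 0.34, TNFAIP3 from -0.47 to 0.34 and TNFAIP2 from -0.63 to 0.086. Between the replicate numbers NFKBIE ranged from -0.11 to 0.039 and BIRC3 from -0.066 to 0.065, and BIRC3 was -0.066 with equal totals and -0.0031 with TMM. The cause of these changes was not tested. Shares of variation were not recomputed without single libraries or under other filters, and the interaction was not run with edgeR or DESeq2, nor the F test with DESeq2. The lowest read count of any of the 10 genes in a library was 188 (NFKBIE), and each arm held 2 lines.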
